A study of Mus musculus with 19 samples.

Results

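The 10 genes described here carry the interleukin 6 family of cytokine signals to the transcription factor Stat3, out of 55487 genes in the tables. They were chosen by symbol, with earlier results of these data known, and matched to Ensembl identifiers. The ligands are Lif, Cntf and Clcf1, and the receptors are Osmr, Lifr, Il6ra and Cntfr. The others are the shared receptor chain Il6st, Stat3 itself and its feedback inhibitor Socs3. Spinal cords snap-frozen from miR-146a KO mice gave 9 libraries and those from wild-type mice gave 4. RW.4 mouse embryonic stem cells, whose genotype is labelled wild-type, were turned into motor neurons with retinoic acid and the Smoothened agonist SAG. Of these cultures 3 libraries were made after lipofection with miR-146a LNA and 3 after lipofection with a control LNA, each at 10 nM over 72 h. The medium held added growth factors that the labels do not name. An LNA is a stabilised oligonucleotide that pairs with a microRNA and blocks it. Age, sex and litter of the mice are not labelled. Whether each library is a separate animal or culture is not labelled either, so the p-values below speak of the spread among libraries, which may be technical.

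Cytokines of this family act through pairs of receptor chains that include Il6st, also called gp130, which most of the family shares. Binding brings Janus kinases together, the kinases phosphorylate Stat3, and Stat3 enters the nucleus and switches on target genes, among them Socs3, which binds gp130 and shuts the signal off. In the nervous system Lif and Cntf are known as survival factors of motor neurons, and Stat3 is known as a driver of astrocyte reactivity after injury. miR-146a is a microRNA of immune cells and glia that is induced by NF-kB and restrains its signalling.

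The sequence of the microRNA is shown because its seed is what pairs with target RNA, and the genes were searched for the complement of that seed. The mature strand lies at chr11:43374435-43374456 (GRCm38.p6, minus strand), and RefSeq gives it as follows, with the seed, bases 2 to 8, in capitals. The strand miR-146b-5p, from another gene, has the same seed.

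miR-146a-5p: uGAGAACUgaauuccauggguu

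miR-146b-5p: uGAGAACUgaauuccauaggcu

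The complement of the seed, AGTTCTC, was searched on the transcript strand of the longest annotated 3′ untranslated region of each gene (GENCODE M21). Il6st and Cntfr held it, which is 2 of the 10 genes, against 11.3% of 20829 coding genes. Il6st held 2 matches, at chr13:112507733-112507761 and chr13:112509130-112509158 (plus strand), and Cntfr held 1, at chr4:41657511-41657539 (minus strand). Capitals mark the match in each.

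Il6st, first match: gaagaactcgaAGTTCTCagctgtgcctc

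Il6st, second match: cacgtgcgcacAGTTCTCtctcctttcct

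Cntfr: gaggggtagggAGTTCTCattaaacgtca

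The matches begin at bases 3299 and 4696 of the 5641 bases of the Il6st region and at base 624 of the 654 of Cntfr. For scale, the reported miR-146a targets Traf6 and Irak1 held 4 and 2 matches by the same search. A match is a description of letters and not a site of binding.

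The cord libraries held 28163289 to 39577247 counts and the culture libraries 40647549 to 65471742. The miR-146a precursor gene Mir146 had 1 count over all knockout cords and none elsewhere, where 3 counts over a group are at most 0.0221 CPM, so it checks no label. One library goes against its label. The library labelled knockout replicate 9 had Pttg1, a neighbour of Mir146, at 13.6 CPM, against 1.07 to 1.81 CPM in the other knockout cords and 14.8 to 17.4 CPM in the wild-type cords. It also had Sod1, the gene of superoxide dismutase 1, at 2031 CPM, against 182 to 276 CPM in every other cord. It is counted among the 9 knockout libraries below. Knockout replicate 7 stands apart in the muscle actin Acta1, at 2436 CPM, and the type I collagen Col1a1, at 1092 CPM. Xist was under 100 CPM in knockout replicates 1 and 9 and wild-type replicate 1 and above it in the other cords. Markers fit the labelled materials: all 10 motor neuron markers and all 8 neuron markers were detected in each culture group, where the 11 astrocyte markers summed to 46.0 to 51.2 CPM after miR-146a LNA and 53.7 to 55.9 CPM after control LNA. In cords the astrocyte markers summed to 7543 to 12990 CPM in knockouts and 7510 to 9028 CPM in wild type.

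Levels per transcript length, in the deposited TPM values, which are scaled to a fixed sum per library, put the receptors first in cords and Stat3 first in motor neurons. In knockout cords Cntfr averaged 153 ± 17.1 TPM and Il6st 76.5 ± 23.5 TPM (SD, n = 9), against 170 ± 9.67 and 57.8 ± 8.23 TPM in wild-type cords (SD, n = 4). Lifr followed at 56.4 ± 8.78 TPM in knockout and 48.4 ± 5.93 TPM in wild-type cords, and Stat3 at 51.6 ± 13.7 and 37.0 ± 0.975 TPM. The other 6 genes were lower: Socs3 averaged 16.6 TPM in knockout and 3.03 TPM in wild-type cords, Il6ra 5.89 and 2.80, Osmr 4.80 and 1.39, Clcf1 3.88 and 2.10, Lif 1.09 and 0.781, and Cntf 0.289 and 0.278. Among neighbours in the wild-type order the ranges of Il6st and Lifr overlapped, as did those of Socs3, Il6ra, Clcf1 and Osmr in turn, while Cntfr, Stat3, Lif and Cntf were each separate from the next gene up or down. In knockout cords every neighbouring pair overlapped. In every wild-type library Lifr and Cntfr, which serve Lif and Cntf, stood above Osmr and Il6ra, which serve oncostatin M and interleukin 6.

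In the cultures Stat3 led with 250 ± 12.5 TPM after miR-146a LNA and 261 ± 2.82 TPM after control LNA (SD, n = 3 each). Socs3 averaged 133 ± 20.7 and 124 ± 13.6 TPM, and Cntfr 112 ± 39.8 and 176 ± 12.3 TPM. Lifr averaged 75.5 and 79.5 TPM and Il6st 53.4 and 61.9 TPM, again after miR-146a LNA and after control LNA in that order. Clcf1 stood at 7.42 and 7.28 TPM, Osmr at 1.86 and 1.38, Lif at 1.36 and 0.730, and Il6ra at 0.899 and 1.09. Cntf had 0 counts after miR-146a LNA, where 3 counts over the group are 0.018 CPM, and 2 counts after control LNA. Neighbours overlapped only for Socs3 with Cntfr and Osmr with Lif after miR-146a LNA, and for Osmr with Il6ra and Il6ra with Lif after control LNA. The level of Socs3 came to 53.0% ± 6.01 of that of Stat3 after miR-146a LNA and 47.4% ± 4.73 after control LNA (SD, n = 3 each), both in TPM. In cords the same share was 28.1% ± 18.2 in knockouts (SD, n = 9) and 8.20% ± 1.14 in wild type (SD, n = 4). Cords and cultures differ in RNA content, and the levels of these materials were not tested against each other.

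**Figure D1:**
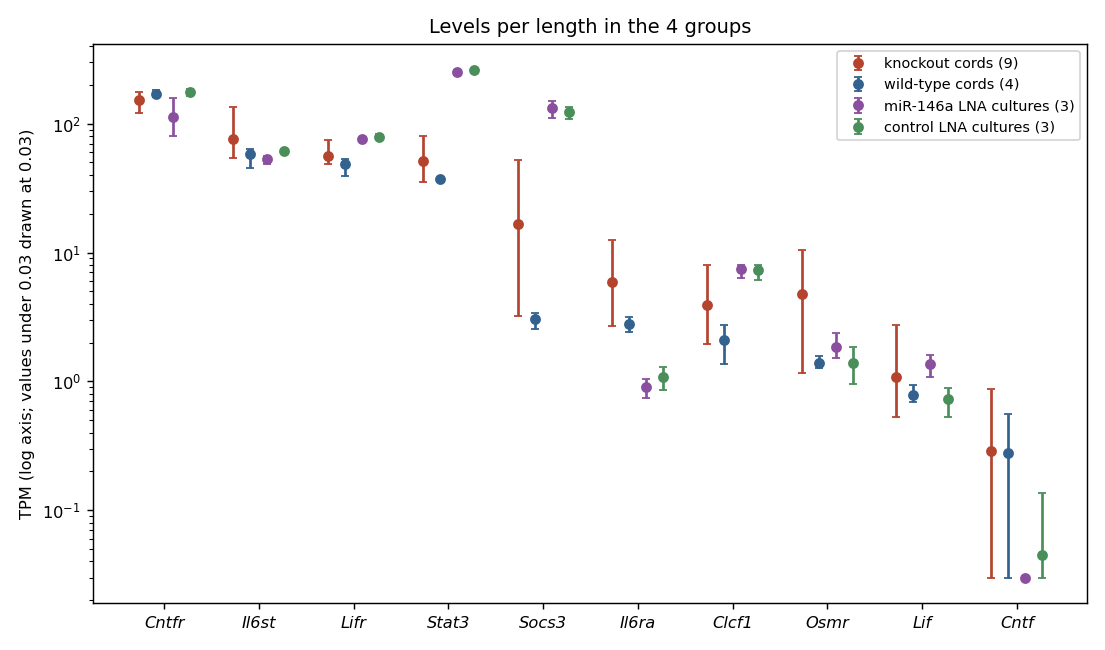
Mean TPM of the 10 genes in the 4 groups on a log axis, with bars from the lowest to the highest library and values under 0.03 drawn at 0.03. Cntfr leads in cords, Stat3 leads in cultures, and Socs3 is at 133 and 124 TPM in the culture groups against 16.6 and 3.03 TPM in knockout and wild-type cords.

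The cord comparison asks what differs when the mouse lacks miR-146a. Most knockout cords held more Socs3, Osmr and Il6ra RNA than the wild-type cords, slightly more Stat3, and slightly less Cntfr. Clcf1, Il6st, Lifr and Lif were each above every wild-type cord in 5 of 9 knockout cords, and Lif was below all in 2. Their means were 1.77-fold, 1.27-fold, 1.12-fold and 1.34-fold the wild-type means in turn. Mean Socs3 was 5.29-fold the wild-type mean, mean Osmr 3.31-fold and mean Il6ra 2.02-fold. The knockout libraries spread widely, and no gene passed the adjusted threshold of 0.05 with edgeR's quasi-likelihood test. In bulk tissue a change in the number of cells of a type and a change in RNA per cell cannot be told apart.

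Of the 10 genes, 9 passed the filter on low counts and Cntf did not. edgeR called 0 of the 9 after Benjamini-Hochberg adjustment, against 0.0% of 22174 genes. At an unadjusted p below 0.05 with edgeR, 5 of the 9 were higher in knockout cords, against 7.53% of all genes tested, and 1 was lower, against 6.8%. The 5 became 3 without knockout replicate 4 or without any 1 of wild-type replicates 1, 2 and 3. DESeq2 called 2, Osmr and Socs3, both higher, against 1.72% of all genes, and limma called 0, against 0.0135%. Of the 9 genes 8 stood higher in knockout cords, and the median log2 fold change was 0.42 beside 0.017 over all genes tested. No gene of the 9 had every knockout library above every wild-type library, against 0.505% of all genes. The genes were chosen with earlier results of these data known, so the shares above are a description and not a test.

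Among receptors, Osmr (ENSMUSG00000022146, chr15:6813577-6874969, minus strand, GRCm38), the chain that pairs with Il6st to bind oncostatin M, differed most. It lay at 4.50 to 39.2 normalised CPM in the 9 knockout cords, with a median of 15.8, against 5.03, 5.14, 5.35 and 6.50 normalised CPM in the 4 wild-type cords. In 8 knockout libraries it was above every wild-type library, and knockout replicate 2 lay below all of them. The means were 18.2 ± 10.5 in knockout (SD, n = 9) and 5.51 ± 0.677 in wild type (SD, n = 4). With edgeR this is a log2 fold change of 1.73 (SE 0.47, unadjusted p = 0.00279, adjusted p = 0.292). DESeq2 gave an adjusted p of 0.0123, and over 21 alternatives the adjusted p ran from 0.0123 to 0.569 with 1 call. Relative to Lifr, another partner chain of Il6st, Osmr stood at 8.32% ± 3.95 of the Lifr level in knockout cords and 2.94% ± 0.682 in wild-type cords, both in TPM.

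Il6ra (ENSMUSG00000027947, chr3:89864059-89913196, minus strand) binds interleukin 6 itself. It lay at 7.44 to 33.7 normalised CPM in knockout cords, with a median of 13.2, against 6.90, 6.92, 8.43 and 9.28 in wild-type cords. In 7 of 9 knockout libraries it was above every wild-type library, and the 2 others, replicates 2 and 9, lay within the wild-type range. The log2 fold change was 1.02 (SE 0.36, unadjusted p = 0.0138, adjusted p = 0.293 with edgeR). An annotated gene on the other strand, Gm42809, shares 2.8% of the exonic bases of Il6ra.

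Lifr (ENSMUSG00000054263, chr15:7090614-7197489, plus strand), the chain for Lif and, with Cntfr, for Cntf, lay at 166 to 252 normalised CPM in knockout cords, with a median of 182, against 178, 180, 172 and 146 in wild-type cords. Il6st (ENSMUSG00000021756, chr13:112464070-112510086, plus strand), the shared chain, lay at 190 to 463, with a median of 243, against 214, 234, 210 and 174. For both genes 5 of 9 knockout libraries were above every wild-type library and the groups overlapped. The log2 fold changes were 0.16 (SE 0.10, unadjusted p = 0.116) for Lifr and 0.35 (SE 0.20, unadjusted p = 0.102) for Il6st, with adjusted p = 0.442 and 0.424 with edgeR. Without knockout replicate 7 that of Il6st was 0.22.

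Cntfr (ENSMUSG00000028444, chr4:41657498-41697089, minus strand), the membrane-anchored subunit that makes a receptor specific for Cntf and Clcf1, went the other way. It lay at 107 to 156 normalised CPM in knockout cords, with a median of 133, against 147, 169, 148 and 153 in wild-type cords. In 7 knockout libraries it was below every wild-type library, and replicates 2 and 5, at 148 and 156, lay within the wild-type range. The means were 133 ± 14.3 in knockout (SD, n = 9) and 154 ± 10.1 in wild type (SD, n = 4). The log2 fold change was −0.22 (SE 0.08, unadjusted p = 0.0169, adjusted p = 0.294 with edgeR), and it stayed between −0.25 and −0.18 over 21 alternatives. The 8 neuron markers summed to 3290 to 4230 CPM in knockout cords and 4103 to 4252 CPM in wild-type cords, and the same 2 knockout libraries, replicates 2 and 5, were the ones within the wild-type range, at 4230 and 4173 CPM. The 10 motor neuron markers summed to 3399 to 4438 CPM in knockout cords and 4111 to 5413 CPM in wild-type cords. For them knockout replicates 2, 5 and 7 were within the wild-type range, at 4116, 4438 and 4275 CPM. Replicate 7 had the lowest neuron sum, 3290 CPM, but not the lowest Cntfr, at 133 normalised CPM. The part of neuronal RNA in the Cntfr values was not tested.

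The ligands were scarce. Clcf1 (ENSMUSG00000040663, chr19:4214238-4223490, plus strand), a cytokine that signals through Cntfr, lay at 2.35 to 9.44 normalised CPM in knockout cords, with a median of 4.19, against 2.67, 1.73, 2.42 and 3.58 in wild-type cords. In 5 knockout libraries it was above every wild-type library (log2 fold change 0.83, SE 0.35, unadjusted p = 0.0326, adjusted p = 0.319 with edgeR). It shares 8.2% of its exonic bases with another annotated gene on its strand, AC109138.7. Lif (ENSMUSG00000034394, chr11:4257557-4272514, plus strand), the leukaemia inhibitory factor, had 28 to 139 counts in knockout cords, against 30 to 41 in wild-type cords. It lay at 0.740 to 3.70 normalised CPM in knockout libraries, with a median of 1.31, against 1.27, 1.11, 0.944 and 1.09 in wild-type libraries, and the groups overlapped. With edgeR the log2 fold change was 0.42 (adjusted p = 0.589, SE 0.36), and 0.13 without knockout replicate 7, which held the 3.70. Cntf (ENSMUSG00000079415, chr19:12763660-12765632, minus strand), the ciliary neurotrophic factor, had 32 counts over the 9 knockout cords and 13 over the 4 wild-type cords and was not tested. Zfp91 covers 78.9% of its exonic bases on the same strand, and reads there were left out of unambiguous counting, so the Cntf counts are uncertain.

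Stat3 (ENSMUSG00000004040, chr11:100885098-100939540, minus strand) lay at 106 to 237 normalised CPM in knockout cords, with a median of 136, against 112, 119, 112 and 116 in wild-type cords. In 8 knockout libraries it was above every wild-type library, and replicate 2 lay below all of them. The means were 154 ± 42.4 in knockout (SD, n = 9) and 115 ± 3.25 in wild type (SD, n = 4), or 0.42 on the log2 scale (SE 0.18, unadjusted p = 0.0366, adjusted p = 0.327 with edgeR). These values are RNA and do not show how much Stat3 was phosphorylated.

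Socs3 (ENSMUSG00000053113, chr11:117966079-117970047, minus strand), a direct target of Stat3 and its inhibitor, had the largest fold change of the 9. It lay at 2.97 to 47.3 normalised CPM in knockout cords, with a median of 9.61, against 2.64, 2.44, 3.08 and 3.24 in wild-type cords. In 8 knockout libraries it was above every wild-type library, from 5.06 in replicate 5 upward, and replicate 2 lay within the wild-type range. The means were 15.1 ± 14.2 in knockout (SD, n = 9) and 2.85 ± 0.372 in wild type (SD, n = 4). The log2 fold change was 2.40 (SE 0.73, unadjusted p = 0.00627, adjusted p = 0.292 with edgeR). DESeq2 gave an adjusted p of 0.0202, and over 21 alternatives the adjusted p ran from 0.0202 to 0.569 with 1 call.

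The bases before the RefSeq start of Socs3 are shown because Stat3 acts at DNA and Socs3 is the gene of the 10 that held a match to the STAT motif. In windows from 250 bases before to 50 after each RefSeq start, TTCNNNGAA, which reads the same on both strands, was found in 8.3% of 32851 windows. Of the 9 genes with a window, which were all but Clcf1, Socs3 alone held it, as TTCTTAGAA from base −154. The 8.3% is a share of windows and not of genes, and Lifr and Cntfr had several windows each. A single match over all these windows is near that share, so it does not set Socs3 apart. The stretch is chr11:117969452-117969616 (GRCm38.p6, minus strand) and lies outside every GENCODE M21 exon of Socs3, although inside the outer bounds of that gene. It holds the first 165 bases of the window, from 250 bases before the RefSeq start, and stops short of that start. Capitals mark the match.

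Socs3, before the RefSeq start: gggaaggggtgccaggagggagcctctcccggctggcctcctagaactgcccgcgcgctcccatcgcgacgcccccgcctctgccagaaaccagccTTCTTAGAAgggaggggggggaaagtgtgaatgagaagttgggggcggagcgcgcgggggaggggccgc

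The stricter form TTCCNGGAA, a subset of the first motif that 1.15% of windows hold, was in none of the 9, which says only that these letters are not in these windows.

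**Figure D2:**
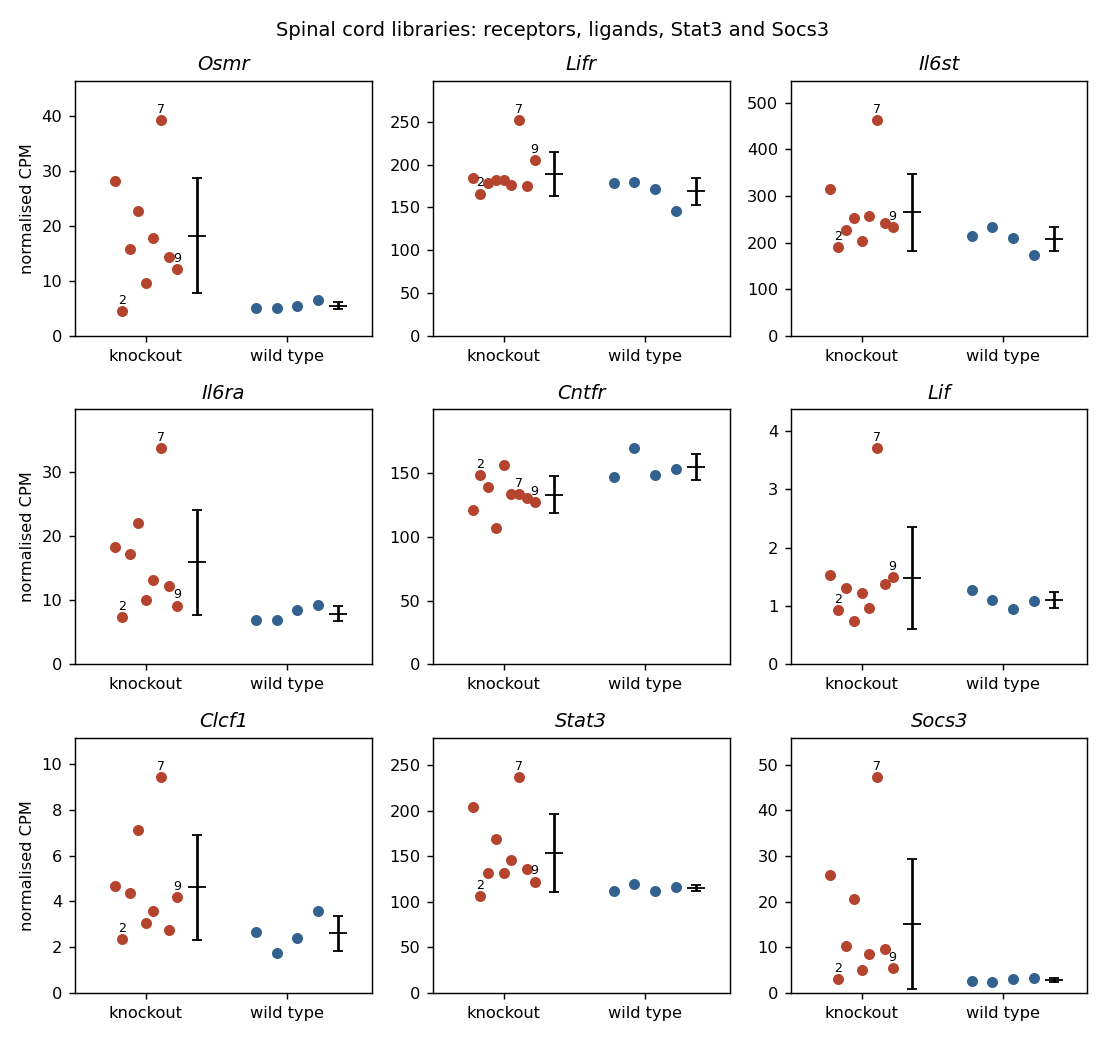
Normalised CPM of 9 genes in each knockout cord (left, n = 9) and wild-type cord (right, n = 4), with the mean and SD as a bar beside each group. Knockout replicates 2, 7 and the library labelled 9 are numbered. For Osmr, Stat3 and Socs3, 8 knockout libraries lie above all wild-type libraries, while for Cntfr 7 lie below.

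The same libraries were high or low for most of these genes. Knockout replicate 7 was the highest knockout library for 9 of the 10, all but Cntfr, and replicate 2 the lowest for 7, which were Osmr, Il6st, Lifr, Il6ra, Clcf1, Socs3 and Stat3. Socs3 was highest in replicates 7, 1 and 4, at 47.3, 25.9 and 20.6 normalised CPM, and Osmr was highest in the same 3, at 39.2, 28.2 and 22.6. Cntfr had its lowest values in replicates 4 and 1, at 107 and 121. Without knockout replicate 7 the log2 fold changes were 1.51 for Osmr, 1.97 for Socs3, 0.81 for Il6ra and 0.33 for Stat3. Without replicate 7 and the library labelled replicate 9 they were 1.56, 2.07, 0.88 and 0.36 for those genes in turn, and −0.20 for Cntfr. In that fit 4 of the 9 genes were higher and 1 lower at an unadjusted p below 0.05 with edgeR. In the libraries with Xist above 100 CPM alone, Osmr had 1.64 and Socs3 2.35.

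Markers of microglia had larger fold changes than those of astrocytes, and both summed highest in the same 3 libraries. Microglial markers, all 10 of them detected, summed to 300.9 to 1421 CPM in knockout cords and 339.9 to 387.1 CPM in wild-type cords, and the 3 highest sums were in replicates 7, 4 and 1, at 1421, 1352 and 1205 CPM. All 10 stood higher in knockout cords (median log2 fold change 1.11), and 8 were higher at an unadjusted p below 0.05 with edgeR, against 7.53% of all genes. That share is a description only, since the marker lists were chosen with earlier results of these data known. Without knockout replicate 7 there were 5 microglial markers at that p (median 0.83), and 4 without wild-type replicate 4. Of 11 astrocyte markers 7 stood higher (median 0.10), 2 of them at that threshold, and 0 to 4 when 1 library was left out. Their highest sums, 12990, 12240 and 11410 CPM, were in replicates 7, 1 and 4. Replicate 7 also had the highest sums of fibroblast (2381 CPM), endothelial (657.7 CPM), Schwann cell (892.8 CPM), red blood cell (673.6 CPM), neutrophil and monocyte (66.07 CPM) and muscle (5157 CPM) markers. The part of these cells in the values of the signalling genes was not tested.

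Of 9 other ligands and subunits 6 passed the filter on low counts, but Osm, Ebi3 and Ctf2 did so only through the knockout libraries, so they are described without a test. Of the remaining 3, with edgeR 0 had an unadjusted p below 0.05, and with DESeq2 0 were called. Osm, oncostatin M, the ligand of Osmr, had 4 to 64 counts in knockout cords and 0 to 6 in wild-type cords. It averaged 0.584 ± 0.476 normalised CPM in knockout (SD, n = 9) and 0.0970 ± 0.0845 in wild type (SD, n = 4), and 7 of 9 knockout libraries were above every wild-type library. Ebi3, a subunit of interleukins 27 and 35, averaged 1.16 ± 0.953 and 0.449 ± 0.263 in the same groups, and 4 of 9 knockout libraries were above every wild-type library. Il6 itself had 7 counts over all knockout cords and 8 over all wild-type cords and was not tested.

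Il27ra, the receptor for interleukin 27, had a log2 fold change of 1.25 (SE 0.57), and 0.71 without knockout replicate 7. Of 3 tested other receptors, Il11ra2 passed the filter on low counts only through the knockout libraries. Of the remaining 2, Il27ra alone was higher at an unadjusted p below 0.05 with edgeR, against 7.53% of all genes. It missed that threshold without any 1 of knockout replicates 3, 4, 5 and 7 or wild-type replicates 2, 3 and 4. Among 4 Janus kinases only Jak3, which serves the common gamma chain receptors of blood cells rather than gp130, passed that threshold, at 21.0 ± 8.55 normalised CPM in knockout and 12.1 ± 1.14 in wild type (log2 0.80, SE 0.28). None of 5 tested other Stat genes passed it with edgeR, though all 5 stood higher, as did 53.1% of all genes. DESeq2 had 2 of them higher at its unadjusted p below 0.05, as it had 2062 of all 22174 genes. Of 14 further inhibitors 3 were higher at an unadjusted p below 0.05 with edgeR, against 7.53% of all genes. Another 1 was lower, which is near the 6.8% of all genes. The 3 became 0 without any 1 of wild-type replicates 2, 3 and 4, and ran up to 4 when another library was left out. The 4 genes were Socs6 (0.27, SE 0.11) and Socs2 (0.28, SE 0.12), relatives of Socs3, the phosphatase Ptpn6 of blood cells and microglia (1.27, SE 0.55), and the SUMO ligase Pias4 (−0.17, SE 0.06). None of these passed the adjusted threshold with edgeR, where each had an adjusted p from 0.292 to 0.341.

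Genes known from other work to be induced by Stat3 were mostly higher in knockout cords. All 26 of a list that spans astrocyte, acute-phase and immediate early genes were tested, 25 stood higher, and the median log2 fold change was 1.13 beside 0.017 over all genes. At an unadjusted p below 0.05 with edgeR 21 were higher and 0 lower, and 20 and 0 without knockout replicate 7 and the library labelled 9. After adjustment edgeR called 0, against 0.0% of all genes, and DESeq2 called 9, against 1.72%. The 21 ran from 14 (without wild-type replicate 1) to 22 when 1 library was left out, against 7.53% of all genes. Timp1, Steap4, Hp and Fgl1 passed the filter on low counts only through the knockout libraries. Without those 4, 18 of 22 were higher at that p, the median was 1.04 and DESeq2 called 7. The list was chosen with results of these data known and its genes answer to other signals too. One of them, Gfap, is also among the astrocyte markers.

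The 8 with the smallest p were Vim, Bcl3, Fos, Timp1, A2m, Serpina3n, Steap4 and Icam1. Serpina3n, a serine protease inhibitor of reactive astrocytes, averaged 246 ± 225 normalised CPM in knockout (SD, n = 9) and 49.7 ± 4.77 in wild type (SD, n = 4), with a log2 fold change of 2.30 (SE 0.73). Bcl3, a nuclear partner of NF-kB subunits, averaged 7.45 ± 6.24 and 1.75 ± 0.197 (2.08, SE 0.62). Vim, the intermediate filament vimentin, averaged 364 ± 260 and 86.9 ± 8.64 (2.07, SE 0.60). In each of these 3, 8 of 9 knockout libraries were above every wild-type library. The adhesion molecule Icam1 had 1.89 (SE 0.62), the protease inhibitor A2m 1.24 (SE 0.38) and the immediate early factor Fos 0.70 (SE 0.21). Each of these 6 had an adjusted p of 0.292 with edgeR. Timp1 and Steap4 were ranked by p as well, but they passed the filter on low counts only through the knockout libraries. That filter favours high knockout values, so these genes are described without a test. Timp1, a tissue inhibitor of metalloproteinases, had a median of 2.89 normalised CPM in knockout and 0.391 in wild type, and Steap4, a metalloreductase, 1.24 and 0.258. In both, 8 of 9 knockout libraries were above every wild-type library and 1 was below all of them.

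**Figure D3:**
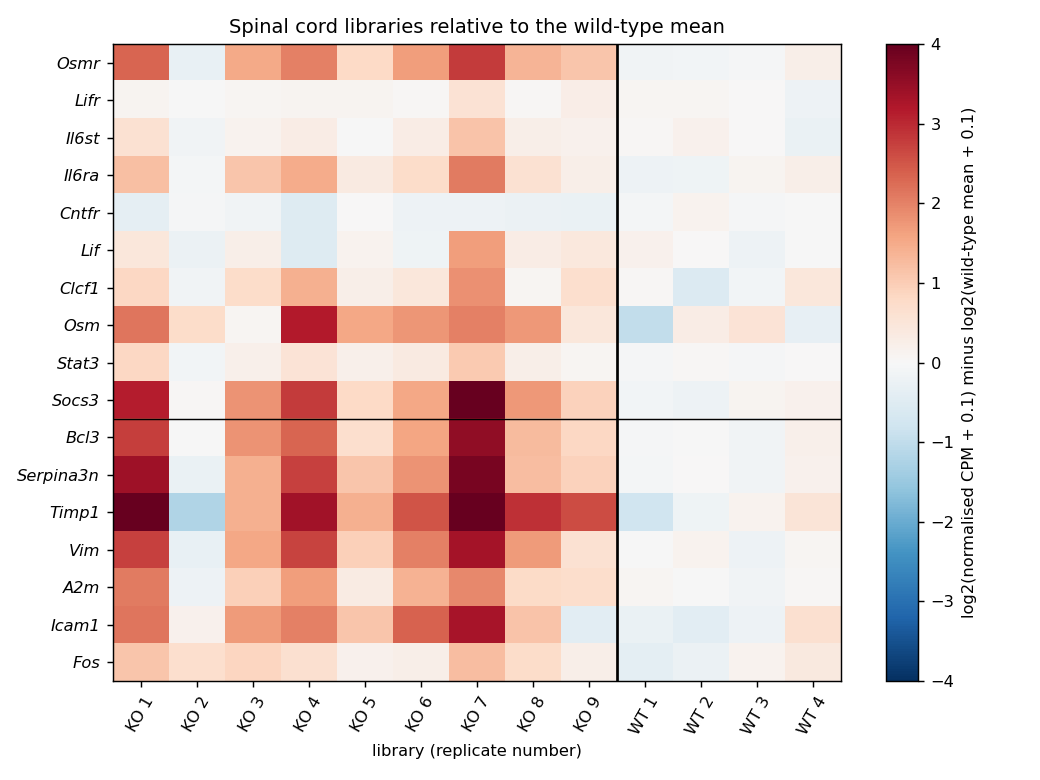
Difference of log2(normalised CPM + 0.1) from the wild-type mean in each cord library (columns, knockout left of wild type) for members of the pathway and Osm (above the line) and 7 Stat3-induced genes (below it), with colours cut at 4 in either direction. Knockout replicates 1, 4 and 7 are darkest across Osmr, Socs3, Bcl3, Serpina3n and Vim, and replicate 2 is near wild type.

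The genes whose pattern over the 13 cords was most like those of Osmr, Socs3 and Stat3 were found among 16699 genes by the root mean square difference of centred log2 values. For Osmr they were Bcl3 (0.24), C4a (0.241), Runx1 (0.257), A2m (0.268) and S100a6 (0.269), beside 0.956 for the spread of Osmr itself. C4a has a near-identical copy, C4b, so its counts are uncertain. For Socs3 they were Bcl3 (0.232), Serpina3n (0.251), Ptprc (0.277), Fcgr2b (0.286) and Csf2rb (0.290), beside 1.248. For Stat3 they were Sipa1 (0.092), Cyb5r3 (0.098), Yap1 (0.10), Cmtm6 (0.10) and Il17ra (0.101), beside 0.338. All these values share the libraries and their depth.

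The culture comparison asks what blocking miR-146a does in motor neuron cultures. The cultures held some RNA of glial marker genes: Schwann cell markers summed to 192.8 to 240.1 CPM after miR-146a LNA and 196.8 to 270.6 CPM after control LNA, oligodendrocyte markers to 135.9 to 149.7 and 121.1 to 133.1 CPM, and microglial markers to 30.59 to 34.27 and 25.43 to 26.44 CPM. Some of these markers had 0 counts over a group. After miR-146a LNA these were C1qa and P2ry12 of microglia, Mal and Pmp2 of Schwann cells and Opalin of oligodendrocytes. After control LNA they were C1qa, C1qb and Itgam of microglia and Mal and Pmp2 of Schwann cells. Only 2 of the 10 microglial markers passed the filter on low counts. The sums do not show which cells were present, and the part of this RNA in the results was not tested. Il6st fell slightly, Cntfr was lower and Lif higher in all 3 libraries without passing the threshold, and Stat3 and Socs3 were close to control. edgeR called 1 of the 9 tested genes, Il6st, against 8.56% of 19099 genes called and 6.16% called lower, so that the share of the 9 was near that of all genes. With edgeR 2 of the 9 had an unadjusted p below 0.05, against 22.9%. The median log2 fold change of the 9 was −0.06 beside 0.008 over all genes. edgeR called 458 genes higher and 1177 lower, and with library-size scaling 741 higher and 831 lower.

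Il6st stood at 164, 161 and 145 normalised CPM in the 3 miR-146a LNA cultures, against 184, 174 and 184 in the 3 control LNA cultures. The groups did not overlap, and all miR-146a LNA libraries were lower, as for 15.1% of all genes. The means were 156 ± 10.1 after miR-146a LNA and 181 ± 5.66 after control LNA (SD, n = 3 each), or −0.21 on the log2 scale (SE 0.06, adjusted p = 0.0252 with edgeR). The call was lost with library-size scaling (−0.17, adjusted p = 0.0629) and when any 1 control library was left out (adjusted p = 0.101, 0.0643 and 0.106). Over 12 alternatives the adjusted p ran from 0.00897 to 0.106.

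Cntfr stood at 115, 72.3 and 60.1 normalised CPM after miR-146a LNA, against 130, 137 and 120 after control LNA. The groups did not overlap, with all miR-146a LNA libraries lower, as for 15.1% of all genes, and LNA replicate 1 was close to the controls. The log2 fold change with edgeR was −0.65 (SE 0.27, adjusted p = 0.250), and without LNA replicate 1 it was −0.96 with an adjusted p of 1.04e-05, the smallest of 12 alternatives, which ran up to 0.468.

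Lif stood at 1.85, 1.59 and 1.26 normalised CPM after miR-146a LNA, against 0.892, 0.604 and 1.02 after control LNA, from 76, 105 and 78 counts against 53, 33 and 53. All 3 miR-146a LNA libraries were above the controls, as for 12.8% of all genes. With edgeR it was 0.89 on the log2 scale (SE 0.30, adjusted p = 0.0746). It was called by DESeq2 (adjusted p = 0.0478, a call made for 11.4% of all genes), by limma (0.0211, made for 11.8%) and by edgeR without LNA replicate 3 (0.0357), in 3 of 12 alternatives, whose adjusted p ran from 0.0211 to 0.282.

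Stat3 stood at 627, 651 and 609 normalised CPM after miR-146a LNA, against 662, 647 and 659 after control LNA, and Socs3 at 107, 112 and 85.2 against 102, 82.5 and 99.5. The groups overlapped for both. Log2 fold changes were −0.06 (SE 0.05) for Stat3 and 0.10 (SE 0.11) for Socs3, and over 12 alternatives they ran from −0.09 to −0.02 and from 0.01 to 0.21. Osmr averaged 5.95 ± 1.40 after miR-146a LNA and 4.40 ± 1.41 after control LNA (log2 0.43, SE 0.22), Lifr 215 ± 6.42 and 226 ± 10.2 (−0.07, SE 0.05), Il6ra 2.05 ± 0.330 and 2.48 ± 0.492 (−0.27, SE 0.23) and Clcf1 7.46 ± 0.809 and 7.30 ± 1.04 (0.03, SE 0.15; SD, n = 3 each). None of these 6 passed the threshold, with adjusted p from 0.271 to 0.934 with edgeR.

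**Figure D4:**
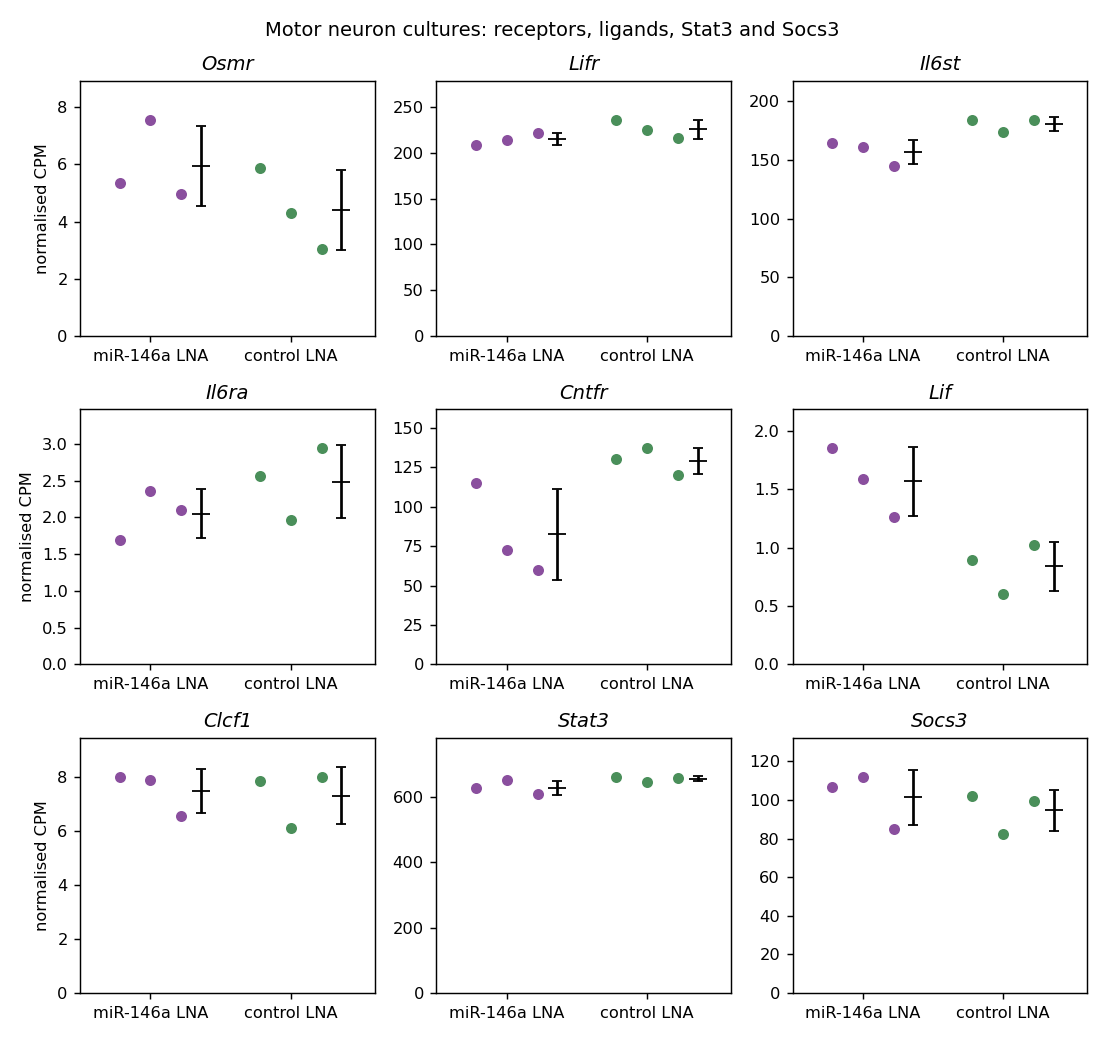
Normalised CPM of 9 genes in each miR-146a LNA culture (left, n = 3) and control LNA culture (right, n = 3), with the mean and SD as a bar beside each group. Il6st and Cntfr lie lower and Lif higher in all 3 miR-146a LNA libraries, and Stat3 at 609 to 651 overlaps the controls.

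Among the other genes of the pathway, 1 of 4 Janus kinases, 2 of 14 inhibitors and 1 of 20 Stat3-induced genes tested fell in miR-146a LNA cultures. Over all lists of other pathway genes 4 of 51 were called, or 7.84%, all lower, which is near the 8.56% of all genes called and the 6.16% called lower. Pias2, a SUMO ligase that restrains Stat proteins, fell to 58.9 ± 1.61 normalised CPM after miR-146a LNA, against 89.3 ± 2.78 after control LNA (SD, n = 3 each; log2 −0.60, SE 0.06, adjusted p = 7.97e-06 with edgeR). Ptpn11, the phosphatase Shp2 that binds gp130, had −0.31 (SE 0.08, adjusted p = 0.0196 with edgeR), and 0.130, 0.0734 and 0.0816 without control replicates 2 and 3 and LNA replicate 1. Jak2, a Janus kinase used by gp130, had −0.20 (SE 0.06, adjusted p = 0.0487), which missed the threshold under library-size scaling (0.126), under either other filter (0.0585 and 0.0507) and without LNA replicate 1 (0.195) or control replicates 1, 2 and 3 (0.0959, 0.176 and 0.170). Of 20 tested Stat3-induced genes 10 stood higher (median log2 fold change 0.02), and Fos alone was called (−0.28, SE 0.08, adjusted p = 0.0405, 0.0834 under library-size scaling, and 0.236, 0.123, 0.108 and 0.0678 without control replicates 2 and 3 and LNA replicates 1 and 2). Of 4 other ligands, 3 other receptors and 6 other Stat genes tested, edgeR called 0, against 8.56% of all genes. At an unadjusted p below 0.05 with edgeR there were 1 ligand and 2 Stat genes, against 22.9% of all genes. DESeq2 called 1 Stat gene, against 11.4% of all genes. Osm had 1 count after miR-146a LNA and 0 after control LNA, where 3 counts over the group are 0.0178 CPM.

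The difference between the knockout effect in cords and the LNA effect in cultures was tested as an interaction over all 19 libraries. edgeR called 0 of the 9 genes, against 1.75% of 24152 genes (303 higher and 120 lower, or 195 and 170 with library-size scaling), and DESeq2 called 0, against 3.79%. At an unadjusted p below 0.05 with edgeR there were 3, against 14.2%: Il6ra (log2 1.31, SE 0.53, adjusted p = 0.258), Socs3 (2.33, SE 0.97, adjusted p = 0.280) and Cntfr (0.45, SE 0.20, adjusted p = 0.294). For Osmr the difference was 1.31 (SE 0.66, adjusted p = 0.386) and for Stat3 0.51 (SE 0.26, adjusted p = 0.402). So a difference in response between cords and cultures was not shown for any of the 9. Pias2 did differ, by 0.55 (SE 0.09, adjusted p = 0.00207 with edgeR), with −0.07 (SE 0.05) in knockout cords and −0.60 after miR-146a LNA.

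**Figure D5:**
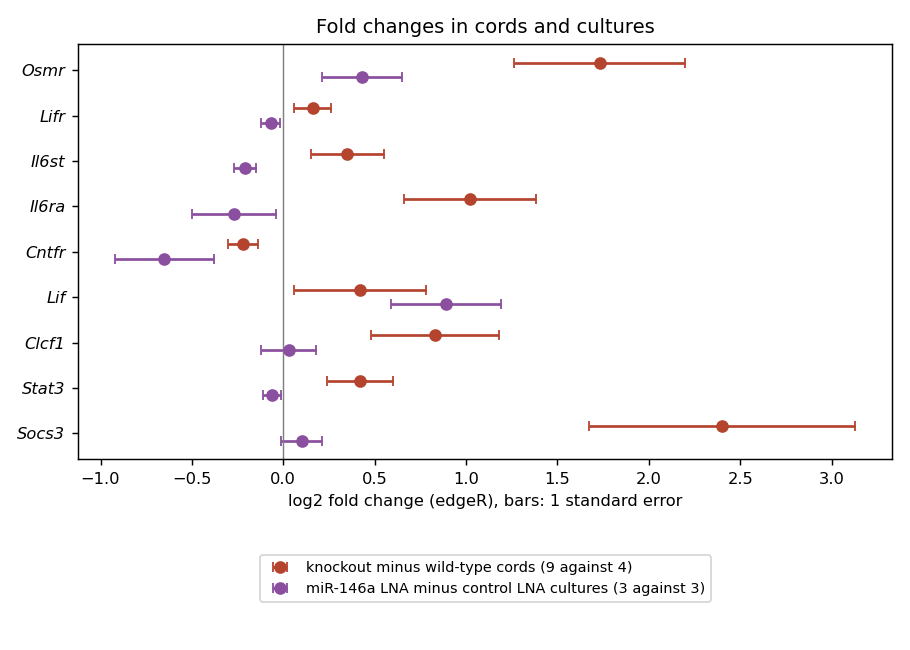
Log2 fold changes with 1 standard error of 9 genes for knockout against wild-type cords (red, 9 against 4 libraries) and miR-146a LNA against control LNA cultures (purple, 3 against 3). Socs3 and Osmr stand at 2.40 and 1.73 in cords and 0.10 and 0.43 in cultures, and Cntfr lies below 0 in both.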

How the data were processed

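RNA was sequenced in 13 libraries from mouse spinal cord and 6 from motor neuron cultures. Ribosomal RNA was removed, per the labels. Reads were aligned with STAR 2.7.9a1 and counted with featureCounts on GRCm38, per the submitters' processing notes, and their design text says that only uniquely aligned, unambiguous reads were counted. The strand setting is not given in the sources used here. The count column that the authors deposited, in whole numbers, was used for every test. The deposited CPM column equals the counts scaled by their sum in all 19 libraries, the deposited FPKM column was not used further, and levels between genes use the TPM column that the authors deposited. Symbols came from GENCODE M21 for 55227 of 55487 genes (99.5%), and sequences from RefSeq GRCm38.p6 tables and GENCODE transcripts. Coordinates are 1-based.

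The main test was edgeR 4.0.16 in R 4.3.3 (robust quasi-likelihood fit of the 2 groups, default filter on low counts, which in cords asks for 0.284 CPM in 4 libraries, TMM scaling, Benjamini-Hochberg adjustment over all genes, threshold 0.05). Normalised CPM is TMM-scaled. Standard errors come from the fold change and the F value. The interaction was fitted once to the 19 libraries together. Alternatives were library-size scaling, no filter or a filter at 1 CPM, a term for Xist, a replicate block for the cultures, single libraries left out, DESeq2 1.42.0, and limma 3.58.1 with quality weights. DESeq2 replaces outlying counts in large groups by default, so its cord calls need not rest on every count. Fits to libraries with Xist above 100 CPM, and list counts without single libraries or without genes that passed the filter only through knockout cords, were added after seeing the data. The scripts were tested on simulated data. Likeness used log2(normalised CPM + 0.5) of genes with a mean of at least 1 CPM.

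The 10 genes and all gene lists were chosen with earlier results of these data known. Named by rule were the 10 genes, genes of other lists past an unadjusted p of 0.05 in cords or an adjusted p of 0.05 in cultures, the 8 Stat3-induced genes with the smallest p in cords and the 5 genes most like Osmr, Socs3 and Stat3. Cord replicate numbers follow accession order and only name libraries. Libraries within a group differed by more than sampling noise (smallest chi-square per degree of freedom 6.03 over 48 pairs). In cords 3 counts are 0.0758 to 0.1065 CPM and in cultures 0.0458 to 0.0738 CPM. These limits cover counting error only.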

Additional observations from a re-analysis of the deposited data

Results flagged for a closer look

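Among 52 sets of values (a gene in a group of 4 or 9 cords), 12 held a library far from the others. The rule marks about 1 in 20 sets of independent, normally distributed values. These sets are normalised CPM without logs and share libraries, so that rate does not apply to them. Knockout replicate 7 was the high library in 10 of the 12. Its normalised CPM was 463 for Il6st, against 315 in the next knockout library, 252 for Lifr (next 205), 3.70 for Lif (next 1.54), 3.33 for Ebi3 (next 1.69) and 5.05 for Il27ra (next 1.34). It was 23.3 for Socs6 (next 18.1), 7.85 for Socs2 (next 6.33), 75.7 for Ptpn6 (next 33.5), 21.5 for Timp1 (next 10.1) and 38.1 for Icam1. The same library held the most RNA of muscle, collagen and blood cell genes among cords, and the part of that RNA in these values was not tested. Knockout replicate 4 was far above the others for Osm, at 1.69 normalised CPM from 64 counts, against 0.771 in the next. In wild-type cords, replicate 4 stood apart for Icam1, at 5.96 against 3.34.

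The effect of the knockout in cords and of the LNA in cultures differed for Pias2, by 0.55 on the log2 scale (adjusted p = 0.00207 with edgeR's interaction term).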

How the results depend on the processing

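In cords the count of genes called with edgeR was 0, and it was 381 with DESeq2, 3 with limma, 8 without knockout replicate 7 and the library labelled 9, 1 in libraries with Xist above 100 CPM and 0 to 2 when 1 library was left out. Calls among the 9 tested genes numbered 0, and 2 with DESeq2. The number at an unadjusted p below 0.05 was 6 and ran from 3 (without wild-type replicate 2) to 6 when 1 library was left out. Library-size scaling gave 2012 genes higher and 950 lower at that p, against 1670 and 1507 with TMM scaling. None of the 9 changed direction in cords under the 21 alternatives. In cultures 1635 genes were called, and 778 to 1985 when 1 library was left out, with 778 without control replicate 2 and 1059 without control replicate 1. Calls among the 9 numbered 1, and 2 with DESeq2, 2 with limma, 0 with library-size scaling and 0 to 2 when 1 library was left out. Clcf1, at 0.03, ran from −0.09 to 0.12 when 1 library was left out, turning to −0.09 without control replicate 2, −0.02 without LNA replicate 1 and −0.01 without LNA replicate 2. For the interaction 423 genes were called, and 916 with DESeq2, 268 with no filter on low counts and 958 without knockout replicate 7 and the library labelled 9, and 0 of the 9 in each. The causes were not tested. Same-numbered cultures did not deviate together (correlations 0.01, −0.05 and 0.006). With 3 cultures a group this cannot settle whether the replicate number is a pairing. A fit with that number as a replicate block called 1793 genes and 1 of the 9. Depth limits Lif, Osm, Il6 and Cntf, which had few counts.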
